A study of Mus musculus with 9 samples.

Results

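The expression of 9 Toll-like receptor (TLR) genes and Cd14 was followed across the cell types of fibroblast cultures during reprogramming to induced neurons (iNs). The members are Tlr1, Tlr2, Tlr3, Tlr4, Tlr6, Tlr7, Tlr8, Tlr9, Tlr13 and Cd14. They were taken by gene symbol and by no threshold on a measured value, although earlier results of these data were known. Each was listed once in the feature table of all 9 libraries. They make up 10 of the 30406 genes that the libraries share.

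TLRs are pattern recognition receptors that start inflammatory signaling when they bind molecules of microbes, viruses or damaged cells. At the plasma membrane TLR2 pairs with TLR1 or TLR6 to bind lipopeptides, and TLR4 binds lipopolysaccharide (LPS) with its co-receptor CD14. In endosomes TLR3 binds double-stranded RNA, TLR7, TLR8 and the rodent receptor TLR13 sense single-stranded or ribosomal RNA, and TLR9 senses unmethylated DNA. Macrophages are known as a main site of expression of most of these genes.

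The libraries came from mouse embryonic fibroblasts (MEFs) of WT, Per1-/- and Per2-/- mice, and per the study's methods the Per1-/- mice carried the Per1tm1Drw allele and the Per2-/- mice the Per2tm1Drw allele. All cultures carried transduced BAM genes, as the labels name the reprogramming factors, and were sampled on days 4, 7 and 10, with 1 Chromium 3′ library per genotype and day and therefore no library without the viruses. MEF stocks were prepared from pooled embryos without heads and hearts, and the sex of the embryos was not determined. PER1 and PER2 are repressors of the circadian clock, and the comparisons asked how the levels differed between genotypes, days and cell types.

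The libraries held 95603 barcodes and from 126625215 to 353198559 unique molecular identifiers (UMI) each, and 74835 cells were kept. WT day 10 stood apart with a median of 3552 UMI per barcode, against 16135 to 25795 in the other libraries, and it is included unless stated. Pairs of libraries shared 10 to 30 of the kept cells' barcodes. The label did not match the targeted transcript in direction: over all cells, Per1 was at 9.14 to 10.3 UMI per 1000000 UMI (CPM) in the libraries labelled Per1-/- and 6.33 to 7.90 CPM in WT, and Per2 was at 4.98 to 6.41 CPM in those labelled Per2-/- and 2.59 to 2.98 CPM in WT. In the macrophage-like cells named below, Per1 was at 6.41 to 6.71 CPM in Per1-/- and 4.65 to 7.74 CPM in WT, which overlapped. Per2 was at 2.65 to 3.41 CPM there in Per2-/- and 1.30 to 1.56 CPM in WT. A 3′ UMI can lie outside a deleted part, so these levels are no check of the labels. By western blotting of MEFs, the study found PER1 lost in Per1-/- and PER2 lost in Per2-/- cells. Male and female cells were mixed in 7 libraries, whereas almost no cell of the libraries labelled Per1-/- on days 7 and 10 had only Xist UMI (0.0165% and 0%).

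Cell classes were rebuilt by clustering without the members and named from marker genes. The labels call all samples induced neurons, but only 8657 cells were neuron-like and 33854 were fibroblast-like. Macrophage-like cells, the class that the results turn on, numbered 6576, with 154, 529 and 314 in WT on days 4, 7 and 10, 434, 1400 and 1357 in Per1-/-, and 204, 1184 and 1000 in Per2-/-. Their 15 macrophage markers summed to 22622 to 30397 CPM per library, against 17.2 to 121 CPM in fibroblast-like cells, and no marker was at 0 in either class. The 18 fibroblast markers summed to 371 to 2993 CPM in macrophage-like cells, against 20245 to 42065 CPM in fibroblast-like cells. Another 2568 cells were Schwann-like, 2395 skeletal muscle-like, 1142 astrocyte-like and 561 mesothelial-like, and 19082 stayed unnamed.

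Promoter sequences are shown because most members were measured at high levels in only 1 class, so that their start sites can be read beside that pattern. They are RefSeq sequences of build GRCm38.p6, from 250 bases before to 50 bases after a start site, read 5′ to 3′ on the gene's strand. The promoter table used here held entries for Tlr1, Tlr2, Tlr3, Tlr6, Tlr8, Tlr9 and Tlr13. Capitals mark every match, on either strand, to 4 motifs: PU.1 (GAGGAAGT), the binding sequence of a macrophage lineage factor, AP-1 (TGANTCA), C/EBP (TTGCNNAA) and the E-box (CACGTG) that clock factors bind. No match overlapped another.
Tlr1, first start, chr5:64933509-64933808, strand -: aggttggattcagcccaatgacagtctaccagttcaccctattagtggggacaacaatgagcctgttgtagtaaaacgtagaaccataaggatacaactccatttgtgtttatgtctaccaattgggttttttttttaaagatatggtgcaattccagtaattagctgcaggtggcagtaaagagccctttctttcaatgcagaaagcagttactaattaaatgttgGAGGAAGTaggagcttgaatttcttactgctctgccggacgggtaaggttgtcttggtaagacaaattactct
Tlr1, second start, chr5:64932650-64932949, strand -: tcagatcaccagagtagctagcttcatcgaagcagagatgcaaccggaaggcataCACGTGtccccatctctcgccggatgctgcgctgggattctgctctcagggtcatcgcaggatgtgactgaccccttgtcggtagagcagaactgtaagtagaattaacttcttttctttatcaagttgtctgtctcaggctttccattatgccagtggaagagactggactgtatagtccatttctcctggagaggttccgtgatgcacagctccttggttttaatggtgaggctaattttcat
Tlr9, chr9:106222348-106222647, strand +: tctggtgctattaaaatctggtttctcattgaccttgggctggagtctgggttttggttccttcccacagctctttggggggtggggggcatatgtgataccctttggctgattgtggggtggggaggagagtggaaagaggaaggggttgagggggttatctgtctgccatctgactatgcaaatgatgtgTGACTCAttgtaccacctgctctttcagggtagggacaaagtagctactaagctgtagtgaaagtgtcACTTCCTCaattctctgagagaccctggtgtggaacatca
Tlr8, chrX:167264280-167264579, strand -: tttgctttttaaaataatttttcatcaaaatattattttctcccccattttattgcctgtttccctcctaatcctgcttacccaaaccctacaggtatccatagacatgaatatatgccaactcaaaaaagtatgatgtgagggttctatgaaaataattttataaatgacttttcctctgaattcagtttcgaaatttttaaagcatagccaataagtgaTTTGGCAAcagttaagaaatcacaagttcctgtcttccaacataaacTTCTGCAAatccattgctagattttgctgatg
Tlr13, chrX:106143025-106143324, strand +: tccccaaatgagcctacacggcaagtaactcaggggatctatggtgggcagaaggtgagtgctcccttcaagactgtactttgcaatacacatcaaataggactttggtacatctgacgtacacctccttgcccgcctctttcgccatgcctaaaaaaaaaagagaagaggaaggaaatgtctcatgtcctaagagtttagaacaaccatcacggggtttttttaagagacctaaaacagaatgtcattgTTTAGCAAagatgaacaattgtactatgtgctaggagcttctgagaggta
Tlr3, chr8:45410331-45410630, strand -: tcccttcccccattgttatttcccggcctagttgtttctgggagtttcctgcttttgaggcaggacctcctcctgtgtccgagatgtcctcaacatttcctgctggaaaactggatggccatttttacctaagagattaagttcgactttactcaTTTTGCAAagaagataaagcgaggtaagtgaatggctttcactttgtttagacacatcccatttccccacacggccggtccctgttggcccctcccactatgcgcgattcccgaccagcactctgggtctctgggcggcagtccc
A match is a description of letters and not a binding site. The first Tlr1 start and Tlr9 each held a PU.1 match, as did 3.20% of all 32851 promoters of the same length. The second Tlr1 start was the only member entry with an E-box match, found in 7.15% of promoters, and Tlr9 the only one with an AP-1 match, found in 7.81%. C/EBP matches, found in 10.8% of promoters, stood in Tlr3, Tlr13 and 1 start of Tlr6, and 2 of them in Tlr8. The Tlr2 entry and the other Tlr6 start held none of the 4 motifs.

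The genes lie on several chromosomes of GRCm38 (GENCODE M21). Tlr1 (chromosome 5, 64924679 to 64933563, minus strand) and Tlr6 (chromosome 5, 64952031 to 64960097, minus) are neighbors and near relatives. Tlr7 (chromosome X, 167304929 to 167330558, minus) and Tlr8 (chromosome X, 167242696 to 167264329, minus) are also neighbors, and Tlr13 is on chromosome X too (106143204 to 106160493, plus). Tlr2 is at 83836272 to 83841767 on chromosome 3 (minus), Tlr4 at 66827584 to 66930284 on chromosome 4 (plus) and Tlr9 at 106222598 to 106226883 on chromosome 9 (plus). Tlr3 (chromosome 8, 45395665 to 45411080, minus) overlaps the antisense gene Gm45542, and it was the only member here with an overlapping gene.

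Among the cell surface receptors in macrophage-like cells, Tlr2 was measured at the highest level. It was at 69.7, 63.2 and 65.7 CPM in WT on days 4, 7 and 10, at 64.2, 118 and 55.8 CPM in Per1-/-, and at 63.3, 58.2 and 44.9 CPM in Per2-/-. The Per1-/- day 7 library was the highest and the other 8 lay between 44.9 and 69.7 CPM, so the genotypes overlapped. Tlr2 in Per1-/- had a mean of 79.4 ± 33.9 CPM (SD, n = 3 days), against 66.2 ± 3.25 CPM in WT and 55.5 ± 9.51 CPM in Per2-/-.

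Tlr4, the LPS receptor, was at 38.5, 34.4 and 36.2 CPM in WT on days 4, 7 and 10. The values were 33.8, 29.4 and 38.6 CPM in Per1-/- and 30.5, 34.0 and 24.3 CPM in Per2-/-. Each WT library lay above each Per2-/- library, as for 7.89% of all tested genes, and no other pair of genotypes or days was free of overlap.

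Cd14, the LPS co-receptor, was at 49.9, 45.2 and 58.8 CPM in WT, at 54.7, 78.3 and 57.7 CPM in Per1-/- and at 62.4, 63.1 and 39.8 CPM in Per2-/-. The groups overlapped in every pair of genotypes and of days, with Per1-/- day 7 the highest and Per2-/- day 10 the lowest library.

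The partners of Tlr2 were lower. Tlr1 was at 17.4, 20.4 and 20.4 CPM in WT, at 19.7, 25.6 and 23.0 CPM in Per1-/- and at 17.2, 29.3 and 26.5 CPM in Per2-/-. All 3 libraries of day 4 lay below all those of day 7, as for 11.5% of all tested genes, and of day 10, as for 14%. Tlr6 was at 2.34, 2.52 and 1.55 CPM in WT, at 2.31, 3.48 and 4.38 CPM in Per1-/- and at 2.23, 3.78 and 3.32 CPM in Per2-/-, with the day 4 libraries close together and below those of day 7.

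Among the endosomal receptors, Tlr13 and Tlr7 were the most abundant. Tlr13 was at 110, 123 and 107 CPM in WT, at 116, 88.2 and 89.5 CPM in Per1-/- and at 109, 99.7 and 67.4 CPM in Per2-/-. Every day 10 library was below every day 4 library, as for 17.3% of all tested genes, and the day 10 files were also made with another Cell Ranger version and feature table. Tlr7 was at 88.4, 94.1 and 90.6 CPM in WT, at 93.0, 99.96 and 118 CPM in Per1-/- and at 81.6, 127 and 95.2 CPM in Per2-/-. The day 7 libraries all lay above those of day 4.

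Tlr8, the X-linked neighbor of Tlr7, was at 12.7, 18.7 and 22.0 CPM in WT, at 16.7, 28.9 and 27.2 CPM in Per1-/- and at 15.8, 31.8 and 14.6 CPM in Per2-/-. It too was higher in every day 7 than in every day 4 library. Tlr3 ranged from 9.64 CPM in Per2-/- day 10 to 14.6 CPM in Per2-/- day 7, with a median of 12.3 CPM. Its day 7 libraries lay above those of both other days, where 3.58% of all tested genes had every day 7 above every day 10 library. Tlr9 was near the limit of detection, at 0.669 to 1.68 CPM with a median of 1.22 CPM.

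**Figure D1:**
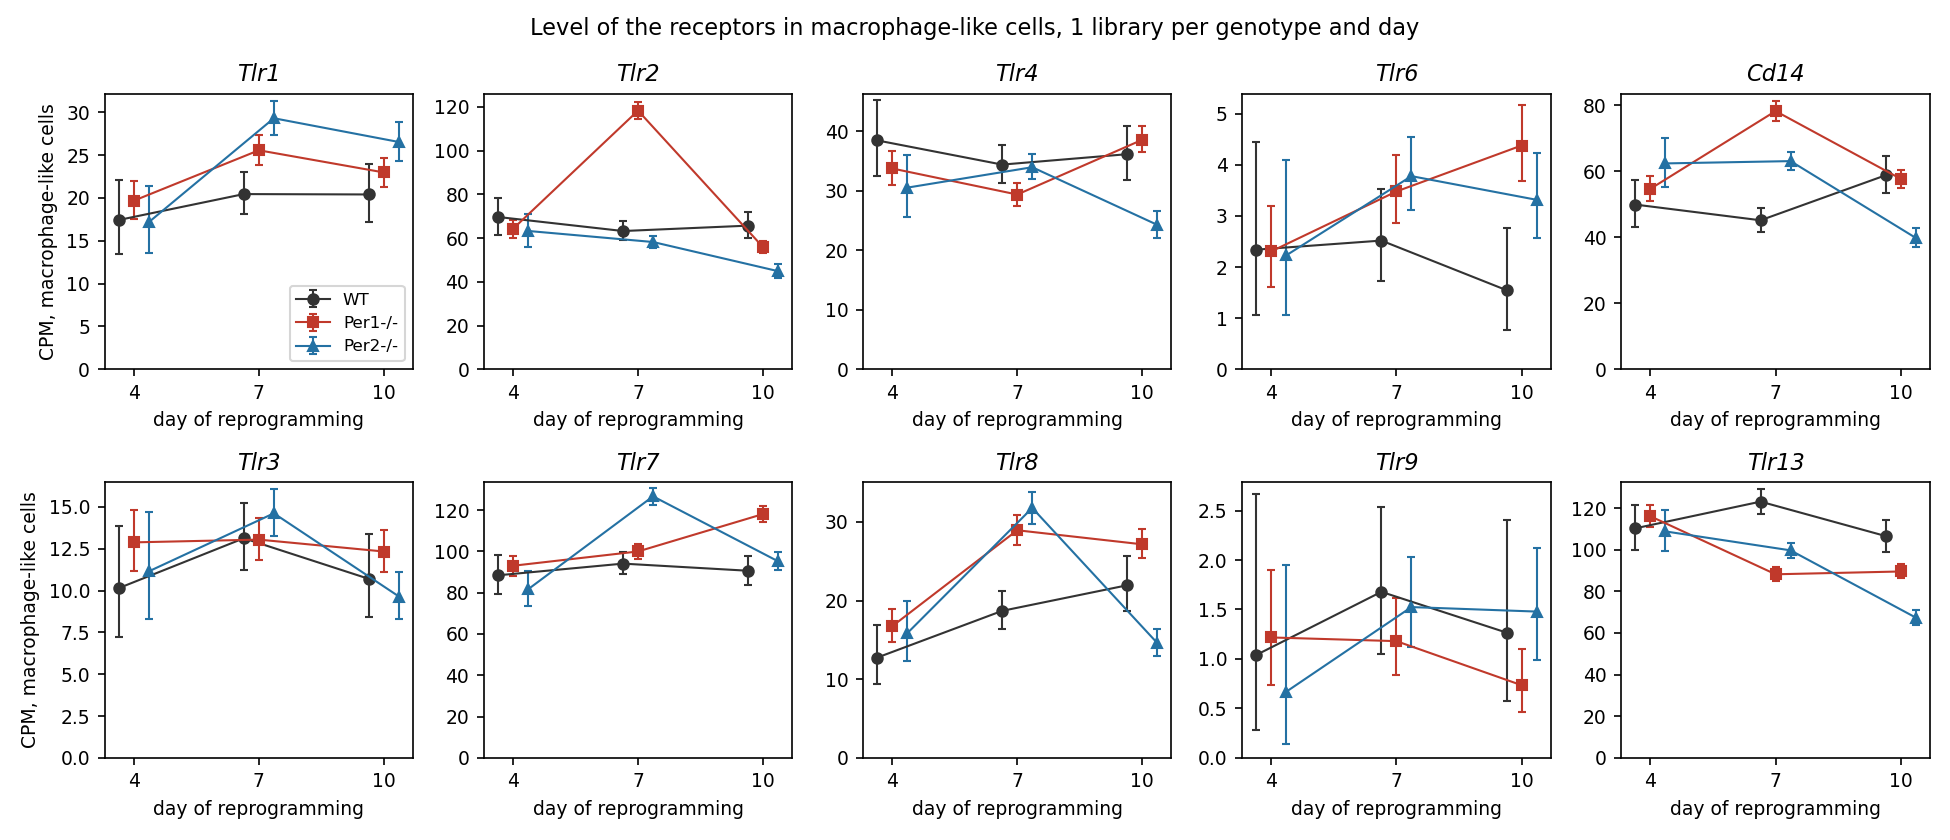
Level of each member in macrophage-like cells (CPM, linear axes from 0) on days 4, 7 and 10, with 1 library per point (black circles WT, red squares Per1-/-, blue triangles Per2-/-) and exact 95% Poisson intervals that cover counting error only. Tlr2 reached 118 CPM in Per1-/- day 7 and stayed between 44.9 and 69.7 CPM elsewhere, and Tlr9 stayed at 0.669 to 1.68 CPM in all libraries.

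A 3′ library counts each transcript once whatever its length, so the order of the genes is an order of transcript ends, and it does not account for how well each end is captured. By median over libraries the order in macrophage-like cells was Tlr13 (107 CPM), Tlr7 (94.1), Tlr2 (63.3), Cd14 (57.7), Tlr4 (34.0), Tlr1 (20.4), Tlr8 (18.7), Tlr3 (12.3), Tlr6 (2.52) and Tlr9 (1.22). Over the libraries the ranges of neighbors in this order overlapped, except those of Cd14 (39.8 to 78.3 CPM) and Tlr4 (24.3 to 38.6 CPM) and those of Tlr3 (9.64 to 14.6 CPM) and Tlr6 (1.55 to 4.38 CPM). Such ranges pool the libraries and do not compare genes within a library. A UMI of Tlr7 was found in a median of 81.4% of macrophage-like cells, of Tlr13 in 80.9%, of Tlr2 in 59.8%, of Cd14 in 51.6% and of Tlr4 in 49.4%. The shares were 38.0% for Tlr1, 34.0% for Tlr8, 21.7% for Tlr3, 6.10% for Tlr6 and 2.60% for Tlr9.

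With every cell thinned to 5000 UMI, which kept 6502 of 6576 cells, the median shares were 37.7% for Tlr7, 35.9% for Tlr13, 22.6% for Tlr2, 19.0% for Cd14 and 0.604% for Tlr9. Median depth ran from 18304 to 35248 UMI per macrophage-like cell over the libraries. In fibroblast-like cells, a UMI of Tlr7 was found in a median of 0.394% of cells, of Tlr4 in 10.7% and of Tlr3 in 8.25%, with median depths of 16143 to 29244 UMI. The complement gene C1qa, which fibroblasts should lack, gave 6.47% there, so a share of cells alone does not separate expression from free RNA.

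The 9 genes other than Tlr3 had their highest median level in macrophage-like cells. Tlr7, Tlr8, Tlr9, Tlr13, Tlr2, Tlr4, Tlr6 and Cd14 were highest there in 9 of 9 libraries, and Tlr1 in 8, with 1 library in which 14 mesothelial-like cells gave a higher value. Tlr4 followed at a median of 5.52 CPM in fibroblast-like cells (3.59 to 8.11), 5.49 CPM in Schwann-like cells, 3.78 CPM in mesothelial-like cells and 3.68 CPM in skeletal muscle-like cells, and the ranges of these neighbors overlapped. Tlr2 came next in mesothelial-like cells (4.31 CPM) and fibroblast-like cells (2.74 CPM), which also overlapped.

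Tlr3 had another order. It was highest in astrocyte-like cells, with a median of 17.5 CPM (11.0 to 52.2), followed by Schwann-like cells at 15.4 CPM (9.62 to 19.8) and macrophage-like cells at 12.3 CPM, and the ranges of these neighbors overlapped. The highest astrocyte-like value came from 19 cells in Per1-/- day 10. Macrophage-like cells were highest for Tlr3 in 0 of 9 libraries, and the first below them were mesothelial-like cells at 5.97 CPM and fibroblast-like cells at 3.505 CPM. Neuron-like cells were last at 0.182 CPM, below every library of skeletal muscle-like cells.

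**Figure D2:**
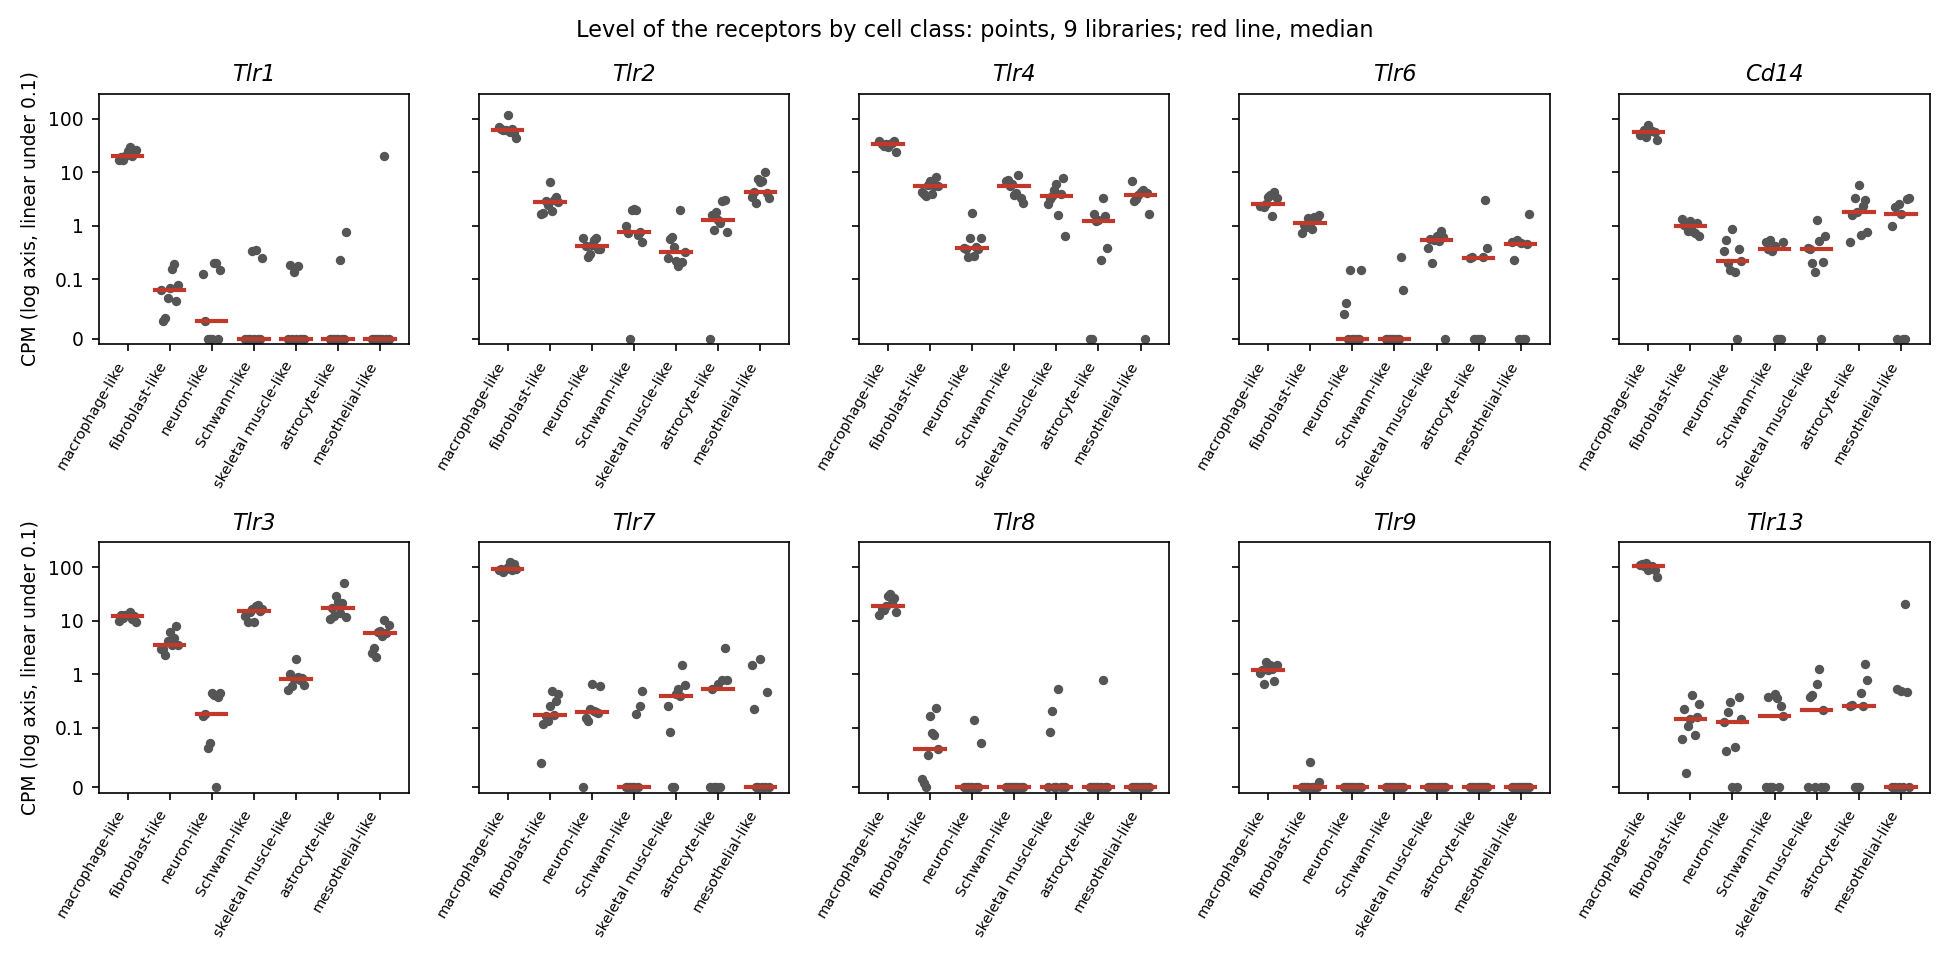
Level of each member (CPM, log axis that is linear under 0.1) in the 7 named cell classes, with 9 libraries as points and their median as a red line. Tlr3 had its highest medians in astrocyte-like cells (17.5 CPM) and Schwann-like cells (15.4 CPM), and the other members theirs in macrophage-like cells.

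In edgeR's quasi-likelihood test with a library block, all 10 members passed as higher in macrophage-like than in fibroblast-like cells, where 82.5% of all tested genes passed in either direction, so passing separates the members little from other genes. Their median log2 difference was 6.90, against -0.19 over all genes tested. The differences were 9.36 ± 0.27 (SE) for Tlr13, 8.996 ± 0.23 for Tlr7, 8.44 ± 0.29 for Tlr8, 8.29 ± 0.23 for Tlr1 and 7.68 ± 0.48 for Tlr9, which had only 3 UMI in all fibroblast-like cells. Tlr9 was too low to be tested in fibroblast-like cells alone. It entered this fit only through its level in macrophage-like cells, so its pass carries no weight. The differences were smaller for Cd14 (6.11 ± 0.15), Tlr2 (4.81 ± 0.14), Tlr4 (2.92 ± 0.14), Tlr3 (1.80 ± 0.17) and Tlr6 (1.55 ± 0.21). The adjusted p ranged from 3.59e-18 for Cd14 to 1.01e-06 for Tlr6. Against fibroblast-like cells, neuron-like cells had lower Tlr6 (-4.66), Tlr3 (-4.50), Tlr4 (-3.83), Tlr2 (-2.96) and Cd14 (-2.01) on the log2 scale, 5 of 10 members with 78.4% of all genes called in either direction, and no member was called higher. Tlr9 had 0 UMI in neuron-like and 3 in fibroblast-like cells, and Tlr8 had 3 and 59, so they bear little on this count. Classes were built from the same cells, so these differences describe them.

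Droplets also hold free RNA, which gives macrophage transcripts to other cells. Fibroblast-like cells held 7 macrophage genes (C1qa, C1qb, C1qc, Tyrobp, Fcer1g, Csf1r and Lyz2) at medians of 0.141% to 0.247% of their macrophage-like level. Tlr6 was at 41.7% of its macrophage-like level in the same cells, Tlr3 at 31.5%, Tlr4 at 15.3%, Tlr2 at 4.57% and Cd14 at 1.64%, each above all 7 genes in 9 of 9 libraries. Tlr7 was at 0.199% and Tlr13 at 0.168%, within the range of those genes, and above all of them in 1 and 0 libraries. Tlr1 (0.331%) was above them in 5 libraries and Tlr8 (0.289%) in 4.

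The 14037 fibroblast-like cells without a UMI of those 7 genes were also taken alone and set against all fibroblast-like cells in the same mix of libraries. There Tlr6 kept 103% of its level, Tlr2 101.6%, Tlr3 99.2%, Tlr4 98.6% and Cd14 97.5%. Tlr13 kept 89.0%, Tlr7 79.0%, Tlr8 59.9% and Tlr1 125%, which rested on only 36, 45, 10 and 28 UMI, and Tlr9 had 0 UMI left. With libraries pooled and no such weighting, Tlr13 kept 62.6%, Tlr7 59.5% and Tlr8 46.0%. In neuron-like cells only Tlr4 exceeded the 7 genes in 9 of 9 libraries, at a median of 1.08% of its macrophage-like level. Tlr3 did so in 8, Tlr2 in 7 and Cd14 in 6. These values rested on 57, 28, 56 and 42 UMI of Tlr4, Tlr3, Tlr2 and Cd14 in neuron-like cells. The 7 genes gauge free RNA of macrophages only, and the part of free RNA from fibroblast-like cells was not tested. Tlr9 had 0 UMI in 8657 neuron-like cells.

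**Figure D3:**
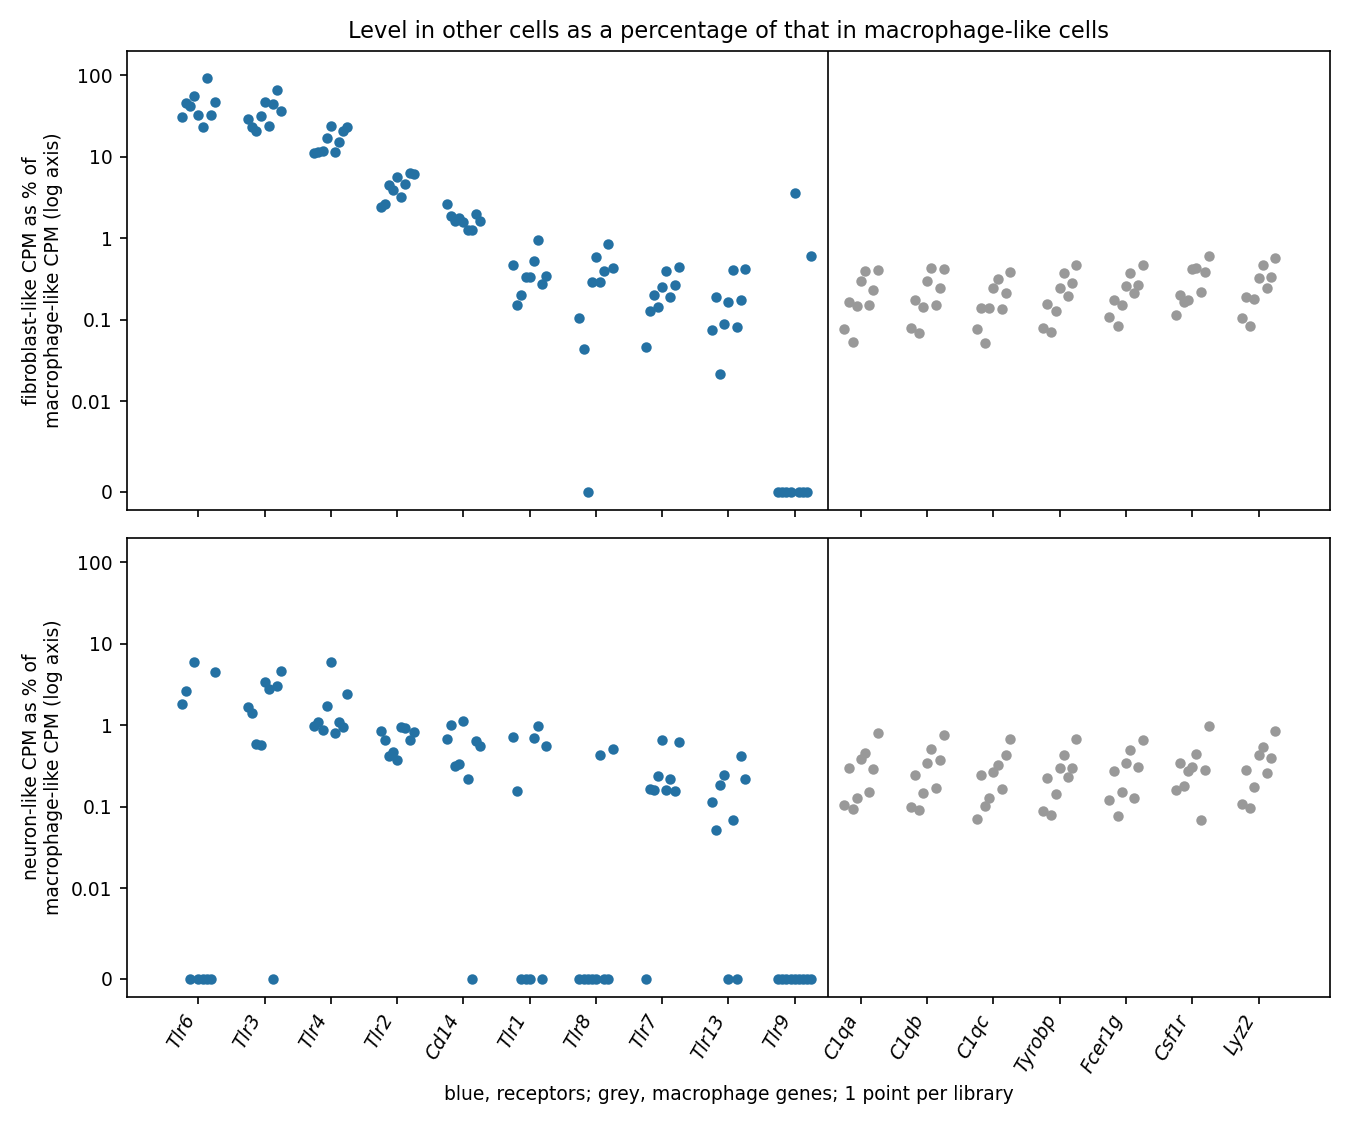
Level of each member (blue) and of 7 macrophage genes (grey) in fibroblast-like cells (top) and neuron-like cells (bottom) as a percentage of the level in macrophage-like cells of the same library, on a log axis that is linear under 0.01, with 1 point per library. Tlr6, Tlr3, Tlr4, Tlr2 and Cd14 lay above the macrophage genes in fibroblast-like cells in 9 of 9 libraries, and Tlr7 and Tlr13 lay among them.

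Macrophage-like cells were 1.92% to 23.2% of the cells, but they gave a median of 96.8% of the Tlr8 UMI of a culture (70.9% to 98.6%), 95.6% of Tlr13 (75.9% to 97.2%), 95.3% of Tlr7 (70.0% to 97.1%) and 94.9% of Tlr1 (69.4% to 96.1%). WT day 10 was the lowest library for these 4 genes, and there unnamed cells gave 25.9% of Tlr8, 23.4% of Tlr13, 28.6% of Tlr7 and 24.9% of Tlr1. Tlr9 was at 96.7%, with only 203 UMI in all. They gave 78.2% of Cd14 (48.4% to 90.9%) and 67.7% of Tlr2 (47.5% to 84.9%). By contrast they gave a median of 37.1% of Tlr4 (19.9% to 57.8%), 20.2% of Tlr3 (7.36% to 39.7%) and 16.0% of Tlr6 (7.69% to 47.7%). Fibroblast-like cells gave a median of 35.7% of Tlr4 (20.02% to 55.7%), 40.3% of Tlr3 (27.4% to 54.5%) and 51.0% of Tlr6 (22.6% to 74.1%). Unnamed cells gave up to 30.7% of Tlr4, 36.0% of Tlr3 and 41.9% of Tlr6. They include 2 clusters, of 8001 and 5479 cells and together 9.60% to 28.5% of a library's cells, in which 18 and 17 of the 18 fibroblast markers were found in at least 50% of cells but whose leading genes included a marker of another class, and these are not counted in the fibroblast-like shares. Another unnamed cluster, number 15, was 66.3% likely doublets, and macrophage was the class its markers fit best. Its 661 kept cells held 497 of the 739 Tlr7 UMI of unnamed cells over all libraries. They also held 455 of 638 for Tlr13, 112 of 161 for Tlr1 and 97 of 195 for Tlr8. Over whole cultures Tlr7 ran from 1.89 to 22.9 CPM and Tlr3 from 2.53 to 8.30 CPM. A level over a whole culture cannot tell apart fewer cells of a class and less RNA per cell.

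The genotype comparison in macrophage-like cells found no member past the threshold. In Per1-/- against WT 0.0153% of 13034 genes were called by edgeR's quasi-likelihood test, and in Per1-/- against Per2-/- 0.00767%. In Per2-/- against WT 0% were called, with 1912 genes at an unadjusted p under 0.05 and 182 called by DESeq2. The median log2 difference of the members was 0.30 in Per1-/- against WT, 0.13 in Per1-/- against Per2-/- and 0.14 in Per2-/- against WT, with medians of 0.00 to -0.01 over all genes. WT was used in both of the comparisons with a mutant.

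Tlr6 (0.77 ± 0.33, adjusted p = 0.467), Tlr8 (0.55 ± 0.22, 0.450), Cd14 (0.39 ± 0.19, 0.486) and Tlr1 (0.33 ± 0.13, 0.442) had the largest log2 differences in edgeR for Per1-/- against WT. Tlr2 differed by 0.31 ± 0.21 (adjusted p = 0.632), and the day 7 ratio of 1.87 faced a ratio of 0.849 on day 10. In Per1-/- against Per2-/- Tlr2 had the largest difference (0.50 ± 0.21, adjusted p = 0.383). In Per2-/- against WT the largest were Tlr6 (0.65 ± 0.33, 0.409) and Tlr1 (0.42 ± 0.13, 0.238), and Tlr4, whose groups did not overlap, was at -0.21 ± 0.15 (0.556). The Per1-/- libraries of days 7 and 10 were nearly all male and the other libraries mixed. With male cells only, without the shallow WT day 10 library, or without day 10, 0 members were called in the 3 genotype contrasts in macrophage-like cells. As 0 members were called with all cells too, and these fits hold fewer cells, they do not test the part of sex or of WT day 10.

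Between days 4 and 7 no member passed either. On day 7 against day 4 in macrophage-like cells, 0.238% of genes were called by edgeR and the median of the members was 0.32, against 0.00 over all genes. Tlr8 was higher by 0.87 ± 0.22 on the log2 scale (adjusted p = 0.109), Tlr1 by 0.51 ± 0.13 (0.106), Tlr7 by 0.34 ± 0.14 (0.226) and Tlr3 by 0.31 ± 0.14 (0.268). Tlr6 differed by 0.60 ± 0.33 (adjusted p = 0.350 in edgeR) and Tlr9 by 0.48 ± 0.43 (0.563). Every day 7 library lay above every day 4 library for Tlr1, Tlr3, Tlr6, Tlr7 and Tlr8, 5 of 10 members, as for 11.5% of all tested genes. Tlr8 alone passed with DESeq2 (0.86, adjusted p = 0.0265) and with no filter on low counts (0.90, adjusted p = 0.0481).

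From day 7 to day 10, 0.944% of genes were called and again no member, with a member median of -0.24. Tlr2 differed by -0.50 ± 0.21 (adjusted p = 0.577 in edgeR) and Tlr3 by -0.32 ± 0.13 (0.559). The day 10 libraries were made with another Cell Ranger version and feature table than those of days 4 and 7, so day and processing cannot be told apart there.

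Fibroblast-like cells likewise held no called member, and Tlr9 was too low to be tested. In the 3 genotype contrasts (Per1-/- against WT, Per1-/- against Per2-/-, and Per2-/- against WT) 0%, 0% and 0% of 16791 genes were called by edgeR, with 1876, 2431 and 1347 at an unadjusted p under 0.05 and 364, 575 and 114 called by DESeq2. On day 7 against day 4 1.78% were called, and on day 10 against day 7 1.06%.

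Tlr3 in fibroblast-like cells was at 2.97, 4.14 and 4.80 CPM in WT on days 4, 7 and 10, at 2.96, 6.13 and 8.05 CPM in Per1-/- and at 2.34, 3.505 and 3.49 CPM in Per2-/-. The day 4 libraries lay below all others, where 17.3% of all tested genes had every day 7 and 19.5% every day 10 library above those of day 4. The log2 difference was 0.78 ± 0.20 for Per1-/- against Per2-/- (adjusted p = 0.251 in edgeR, 0.0204 in DESeq2) and 0.67 ± 0.20 for day 7 against day 4 (adjusted p = 0.133 in edgeR, 0.0447 in DESeq2). Without Per1-/- day 4, the first was 0.9995 and passed in edgeR (adjusted p = 0.0143), in a fit that called 1581 of 16650 genes against 0 with all libraries.

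Tlr4 in fibroblast-like cells was at 4.23, 5.92 and 5.52 CPM in WT, at 3.91, 6.93 and 8.11 CPM in Per1-/- and at 3.59, 3.94 and 5.67 CPM in Per2-/-. All day 10 libraries lay above all day 4 libraries, again as for 19.5% of genes. Tlr2 was at 1.69, 2.49 and 3.04 CPM in WT, at 1.71, 6.60 and 3.51 CPM in Per1-/- and at 2.89, 1.88 and 2.74 CPM in Per2-/-. As in macrophage-like cells, the Per1-/- day 7 library was the highest for Tlr2, and the groups overlapped.

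Cd14 in fibroblast-like cells was at 0.655 to 1.32 CPM and Tlr6 at 0.721 to 1.56 CPM. The 3 Per1-/- libraries lay above the 3 Per2-/- libraries for Cd14 (0.49 ± 0.26, adjusted p = 0.424 in edgeR), as for 5.82% of all tested genes. The day 10 libraries lay above those of the other days for Tlr6, as did those of 5.86% of genes against day 7 and 19.5% against day 4. Tlr7 and Tlr8 stayed under 0.5 CPM, with 205 and 59 UMI in fibroblast-like cells of all 9 libraries, day 10 included. Their differences between days 7 and 4 were 1.41 ± 0.32 and 3.87 ± 0.77 on the log2 scale (adjusted p = 0.0743 and 0.0570 in edgeR). That of Tlr8 rested on 0 to 0.0136 CPM on day 4 against 0.0541 to 0.169 CPM on day 7. The summed macrophage markers in these cells ran from 17.2 to 121 CPM over the libraries, and their part in these differences was not tested.

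Macrophage-like cells fell into 3 clusters, drawn without the members, among which the members differed as a description. Cluster 6, of 4774 cells, was led by genes such as Pf4 and Cd5l, cluster 21, of 948 cells, by cell cycle genes such as Mki67, and cluster 24, of 854 cells, by Ighm and Siglech with the highest Cx3cr1, the fractalkine receptor of microglia and other resident macrophages. Cd14 was at a median of 63.7 CPM in the first and 58.4 CPM in the cycling cluster but 15.9 CPM in the Cx3cr1-high cluster, lower there than in the first in 9 of 9 libraries. Tlr2 was the reverse, at 64.1, 51.7 and 92.3 CPM, and highest in the Cx3cr1-high cluster in 9 of 9.

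Of the endosomal receptors, Tlr7 was at 107 CPM in the first cluster, 67.6 CPM in the cycling and 83.3 CPM in the Cx3cr1-high cluster, and Tlr8 at 22.9, 13.5 and 9.002 CPM, both highest in the first in 9 of 9 libraries. Tlr13 was at 116 and 117 CPM in the first and the Cx3cr1-high cluster and 72.3 CPM in the cycling one, lower there than in either in 9 of 9 libraries. Tlr3 was at 14.0, 10.9 and 8.25 CPM, with the first cluster above the cycling one in 6 of 9 libraries and above the Cx3cr1-high one in 8. Tlr9 was at 1.61, 0.186 and 1.38 CPM, with the first above these in 7 and 5 of 9. Tlr4 was at 35.1, 32.3 and 34.6 CPM, with cluster 6 above cluster 24 in 2 of 9 libraries and cluster 21 above cluster 24 in 1 of 9. The first cluster made up 50.6% to 79.4% of macrophage-like cells, and its share was 50.6% to 58.3% on day 4 and 62.4% to 79.4% on day 7. WT had the lowest share on each day, with 50.6%, 62.4% and 53.8% on days 4, 7 and 10, whereas Per1-/- libraries had 58.3%, 77.9% and 79.1% and Per2-/- libraries 55.9%, 79.4% and 72.5%. The part of these shares in the differences between days and genotypes was not tested.

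**Figure D4:**
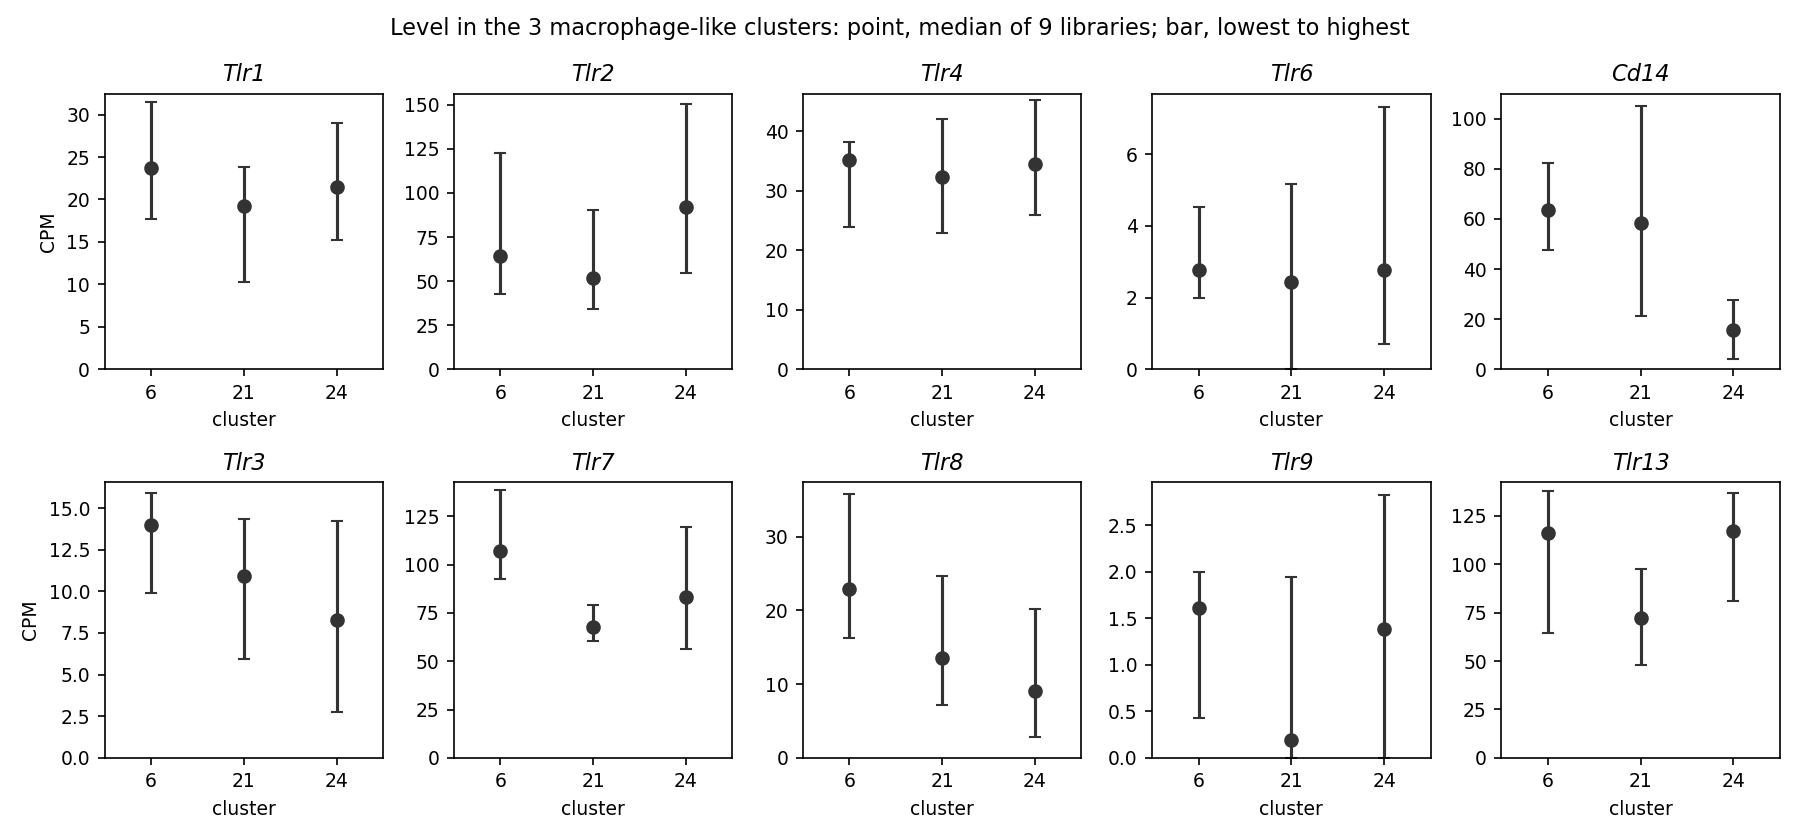
Level of each member (CPM, linear axes from 0) in the macrophage-like clusters 6 (the largest), 21 (cycling) and 24 (Cx3cr1-high), with the median of 9 libraries as a point and a bar from the lowest to the highest library. Cd14 was at 15.9 CPM in cluster 24 against 63.7 CPM in cluster 6, and Tlr2 at 92.3 against 64.1 CPM.

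Tlr7, Tlr8 and Tlr13 are among 1049 shared genes on chromosome X, and Tlr7 is known to escape X inactivation in some immune cells. Macrophage-like cells with only Xist UMI were therefore compared with cells with only Y-linked UMI within the 7 mixed libraries. Tlr7 was at 92.0 and 83.5 CPM (Xist and Y cells) in WT day 4, 93.0 and 86.9 CPM in WT day 7 and 92.7 and 95.04 CPM in WT day 10. It was at 93.5 and 89.4 CPM in Per1-/- day 4, and at 84.2 and 88.4, 129 and 124, and 91.9 and 105 CPM in Per2-/- on days 4, 7 and 10.

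Xist cells were higher in 4 of 7 libraries for Tlr7, with a mean log2 ratio of 0.01 ± 0.12 (SD, n = 7) and p = 0.875 in a two-sided exact sign permutation test. In Per2-/- day 10 the ratio was 0.874 (0.790 to 0.968 by counting error), lower in Xist cells. Tlr8 was at -0.07 ± 0.31 (exact p = 0.5625) and Tlr13 at -0.03 ± 0.12 (exact p = 0.546875). Genes known to escape X inactivation were higher in Xist cells in 7 of 7 libraries: Eif2s3x by 0.78 ± 0.21, Kdm5c by 0.59 ± 0.11, Kdm6a by 0.51 ± 0.15 and Ddx3x by 0.24 ± 0.14, each with an exact p = 0.015625, the smallest that 7 libraries allow. The permutation test takes the 7 libraries as independent, and how many MEF stocks they came from is unknown. In edgeR 0.0965% of 11403 genes were called between Xist and Y cells, 0 of 9 tested members among them, with 427 genes at an unadjusted p under 0.05 and 9 called by DESeq2. Tlr7 differed there by -0.02 ± 0.05 on the log2 scale, and Kdm5c (0.57, adjusted p = 0.000138), Kdm6a (0.56, 0.00042) and Eif2s3x (0.72, 7.07e-07) passed while Ddx3x (0.20, 0.267) did not.

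**Figure D5:**
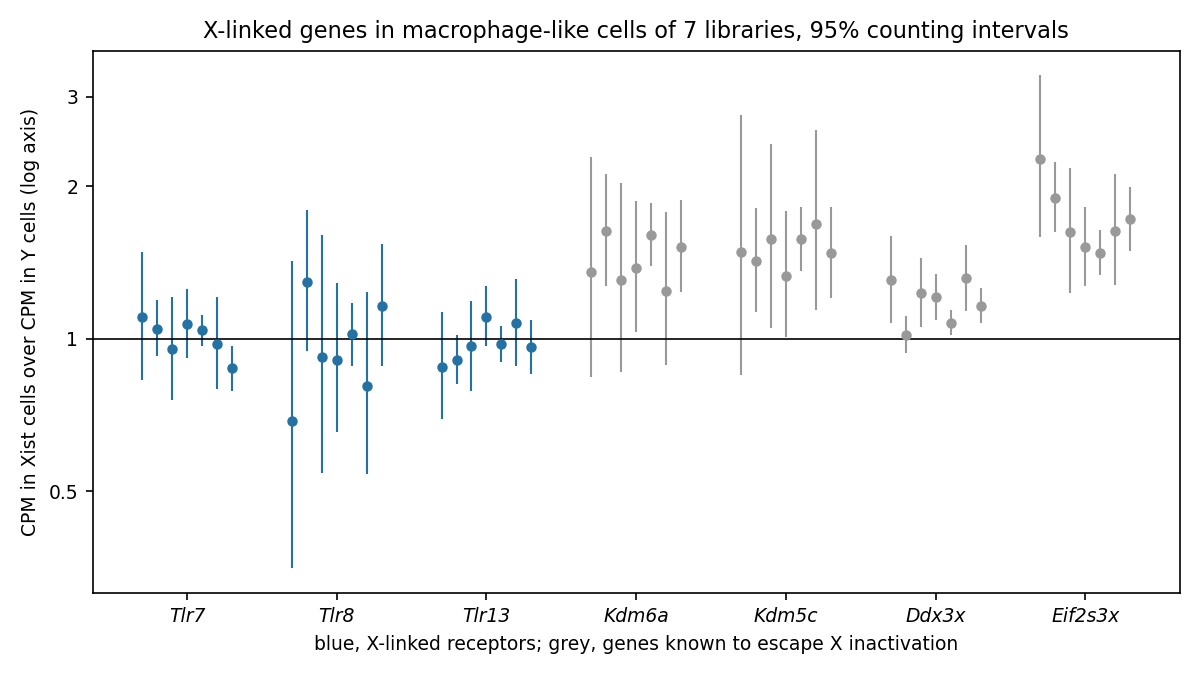
Level in cells with Xist UMI divided by that in cells with Y-linked UMI (log axis), in macrophage-like cells of 7 libraries (points) with 95% intervals that cover counting error only. The X-linked members Tlr7, Tlr8 and Tlr13 (blue) scattered around 1, and Kdm6a, Kdm5c, Ddx3x and Eif2s3x (grey) lay above 1 in 7 of 7 libraries.

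The rest of the pathway was read from lists of 80 genes. Of the 13 accessory proteins, which fold, transport or assist TLRs, 12 were higher and 1 lower in macrophage-like than in fibroblast-like cells, where 82.5% of all genes were called. Unc93b1, which carries the endosomal TLRs, had a median of 319 CPM in macrophage-like cells and 9.72 CPM in fibroblast-like cells. Cd180, a TLR4-like surface protein, was at 139 CPM in macrophage-like cells. Ly96, which codes for MD-2, the LPS-binding partner of TLR4, was at 34.1 and 12.004 CPM in macrophage-like and fibroblast-like cells.

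Of the 6 adaptors 5 were higher and 1 lower in macrophage-like cells. Myd88, used by most TLRs, was at 33.8 CPM there and 9.59 CPM in fibroblast-like cells. Ticam1, the adaptor of TLR3, was at 7.35 and 6.23 CPM, and Ticam2, which links TLR4 to it, at 9.84 and 0.214 CPM. The single lower adaptor was Sarm1, a neuronal protein, which had a median of 19.2 CPM in neuron-like cells. Of the 14 kinases and ligases 13 were higher and 1 lower, all 9 transcription factors higher, 7 of 9 inhibitors higher and 1 lower, and of 23 tested targets 15 higher and 4 lower. In this comparison 82.5% of all tested genes were called in either direction, so such counts separate the lists little from other genes.

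Among targets, Ccl3 and Ccl4, chemokines of macrophages, were at medians of 145 and 145 CPM in macrophage-like cells and Tnf at 31.7 CPM, whereas Il6, Nos2 and Ifnb1 had 2, 2 and 3 UMI in all macrophage-like cells. The remaining receptors were near 0, with Tlr5 at 0.776 CPM, Tlr12 at 0.124 CPM and Tlr11 at 2 UMI in all.

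Between genotypes 0 genes of these lists were called by edgeR in macrophage-like or fibroblast-like cells, where at most 0.0153% of all genes were. The tested targets had a median log2 difference of 1.01 (20 genes) in macrophage-like and 0.998 (17 genes) in fibroblast-like cells for Per1-/- against WT. The medians were 0.33 and 0.59 for Per1-/- against Per2-/- and 0.46 and -0.11 for Per2-/- against WT. Those over all genes ran from -0.01 to 0.00, and none of the targets was called. The targets include Marco and Clec4e, which the study picked from these same libraries as strongly raised in Per1-/- macrophages. They also include Tnf and Ccl2, whose rise with virus the study reported as stronger in Per1-/- cells, as it did for the member Tlr2. The Per1-/- medians are therefore not independent of the study's results. Between days 5 genes of these lists were called. They were 1 on day 10 against day 7 in macrophage-like cells (0.944% of all genes) and 4 on day 7 against day 4 in fibroblast-like cells (1.78%). Pik3ap1, an adaptor of phosphoinositide signaling, was higher on day 10 than on day 7 in macrophage-like cells by 1.78 ± 0.14 on the log2 scale (adjusted p = 0.0003 in edgeR). Day and processing cannot be told apart there, as the day 10 files were made with another Cell Ranger version and feature table. From day 4 to day 7 in fibroblast-like cells, Lgmn (-0.66), Dusp1 (-1.03) and Ptgs2 (-2.12) fell, and Ly86, the partner of Cd180, was called as higher (2.34). Ly86 had only 202 UMI in all fibroblast-like cells, with a median of 0.174 CPM against 34.6 CPM in macrophage-like cells. The macrophage gene C1qa in fibroblast-like cells was at 1.05, 2.73 and 0.732 CPM in WT, Per1-/- and Per2-/- on day 4 and at 2.10, 6.28 and 7.63 CPM on day 7, and the part of free RNA in the Ly86 difference was not tested.

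Genes most alike to each member were ranked by Pearson's r of log2 CPM over 59 sums of a library and a class, which share libraries and depth, as a description. Tlr7 was most like Inpp5d (r = 0.991) and Tlr8 most like AU022793 (0.993), which also ranked second for Tlr1 and Tlr7. Tlr1 was most like F630028O10Rik (0.994) and Tlr13 most like Arhgap9 (0.992). Cd14 was most like Itgb2 (0.969) and Tlr2 most like Cxcl16 (0.966). Pearson's r was lower for Tlr4 with Mbnl1 (0.936) and Tlr3 with Rasa3 (0.927). Spearman's rho gave another order of these pairs, with 0.907 for Tlr3, 0.889 for Tlr2, 0.870 for Tlr4, 0.8003 for Tlr7, 0.730 for Tlr8, 0.717 for Tlr1, 0.701 for Cd14 and 0.622 for Tlr13. Tlr6 and Tlr9 had mean levels too low for this ranking.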

How the data were processed

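Chromium 3′ v3.1 libraries were made from 9 cultures. The deposited files hold raw UMI counts per gene and barcode, made by the authors with Cell Ranger. The submitters' processing notes name version 7.1 and mm10, whereas the file headers give 4.0.0 for days 4 and 7 (31053 features) and 6.0.0 for day 10 (32285). A minimum of 3000 UMI and a maximum of 20% of UMI in mitochondrial genes left 81999 of 95603 barcodes. These were clustered (scanpy 1.11.5, Leiden, 31 clusters of which 21 were named) without 112 genes. Those were the members, the pathway genes, the X-linked control genes, Xist, Y-linked genes and mitochondrial genes. The 7164 likely doublets by Scrublet score took part in clustering. They were then left out of cluster profiles and of sums, and 74835 cells were kept. Counts were summed per library and class. CPM are UMI per 1000000 UMI of such a sum, with exact 95% Poisson intervals, which cover counting error only. Sums were tested with edgeR 4.0.16 (TMM, quasi-likelihood test, genotype plus day, or library plus class), Benjamini-Hochberg adjusted over all genes that passed edgeR's low-count filter, at a threshold of 0.05. With 1 library per genotype and day, days served as replicates of a genotype, and the libraries come from stocks of unknown number. In the genotype and day fits, p-values measure the spread left after these terms. It mixes differences between single libraries with genotype differences that change between days. A genotype difference on 1 day only therefore counts in part as spread. DESeq2 1.42.0, limma 3.58.1, size factors, no filter, other cell selections and each library left out were alternatives. On simulated data with 200 changed genes, the macrophage-like fit recovered 25%, 82.5% and 96% of 1.5-fold, 2-fold and 4-fold changes, and the fibroblast-like fit 9%, 70% and 97%. The adjusted threshold is stricter where fewer genes pass, and the genotype contrasts called at most 2 genes. These shares therefore do not carry over to the genotype contrasts. All members of the list are named. The members, lists and tests were chosen with earlier results of these data known.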

Additional observations from a re-analysis of the deposited data

Results flagged for a closer look

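For 7 of 30 pairs of a member and a genotype contrast (23.3%), the ratio in macrophage-like cells lay on opposite sides of 1 on different days, with intervals from counting error only that did not include 1. The same held for 11.2% of the 39102 pairs of a tested gene and a contrast. Whether such an interval includes 1 depends on the number of UMI, which was not matched between members and all genes. With 1 library per genotype and day, the difference between the days was not tested. Tlr2 in Per1-/- over WT was at a ratio of 1.87 on day 7 and 0.849 on day 10. Cd14 in Per2-/- over WT was at 1.25 on day 4, 1.40 on day 7 and 0.677 on day 10, and Tlr8 in the same contrast at 1.70 on day 7 and 0.665 on day 10.

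The other ratios were of Per1-/- over Per2-/-. Tlr4 was at 0.865 on day 7 and 1.59 on day 10, Tlr8 at 0.911 and 1.86, and Tlr13 at 0.885 and 1.33. Tlr7 was at 1.14 on day 4, 0.789 on day 7 and 1.24 on day 10. Every flagged pair except that of Tlr2 included the Per2-/- day 10 library, so the pairs are not separate observations. Per2-/- day 10 was the lowest library for Tlr2, Tlr3, Tlr4, Tlr13 and Cd14 in macrophage-like cells. In that library 23% of macrophage-like cells were in the Cx3cr1-high cluster and 4.5% in the cycling cluster, against 8.07% to 25.3% and 8.53% to 29.3% in the other libraries, and the part of these shares in the ratios was not tested.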

How the results depend on the processing

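Of 2128 values of members under the alternatives, 2118 kept their side of the threshold, 10 gained a call, 0 lost one and 0 called values changed sign, while 139 uncalled values changed sign. Between days 7 and 4 in macrophage-like cells, 1 member (Tlr8) was called with no filter and 1 with DESeq2. Leaving out single libraries gave 0 to 1 members for Per2-/- against WT in macrophage-like cells (Tlr1, 0.53, adjusted p = 0.0424 in edgeR without Per2-/- day 4), 0 to 1 for Per1-/- against Per2-/- in fibroblast-like cells (Tlr3 without Per1-/- day 4) and 5 to 6 for neuron-like against fibroblast-like cells (Tlr8, -2.51, adjusted p = 0.0392 without Per2-/- day 7). In fibroblast-like cells DESeq2 called 1 member (Tlr3) for Per1-/- against Per2-/- and 1 (Tlr3) for day 7 against day 4. For the latter limma-voom called 1 (Tlr8, 3.26, adjusted p = 0.0491) and adding 2 more fibroblast clusters, chosen after seeing the data, 2 (Tlr7, 1.58, 0.0316, and Tlr8, 3.70, 0.0351, in edgeR). The cause was not tested.

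Counts over all genes moved more. In macrophage-like cells leaving out 1 library gave 0 to 12 calls for Per1-/- against WT (2 with all), 0 to 383 for Per1-/- against Per2-/- (1), 0 to 596 for Per2-/- against WT (0), 0 to 88 for day 7 against day 4 (31) and 70 to 137 for day 10 against day 7 (123). Other alternatives gave 0 to 94, 0 to 130, 0 to 182, 0 to 495 and 79 to 202. In fibroblast-like cells, in the same order, leaving out 1 library gave 0 to 975 (0), 0 to 1581 (0), 0 to 0 (0), 0 to 253 (299) and 115 to 218 (178), and other alternatives 0 to 364, 0 to 575, 0 to 114, 17 to 1324 and 135 to 334. Between Xist and Y cells they gave 9 to 13 and 9 to 69 (11). DESeq2's size factors moved the median of all genes in neuron-like against fibroblast-like cells from -0.04 to 0.08. Day was a term of the genotype fits, and library a term of the class and Xist fits. Depth limits Tlr9 and Tlr6, and in fibroblast-like cells also Tlr1, Tlr7, Tlr8 and Tlr13.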
